A study of Mus musculus with 18 samples.

Results

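The Gimap genes encode GTPases of immunity-associated proteins. The 8 genes described here, Gimap1, Gimap3, Gimap4, Gimap5, Gimap6, Gimap7, Gimap8 and Gimap9, were taken by symbol from the 36655 distinct symbols of the expression table. GIMAP proteins bind guanine nucleotides through a shared GTPase domain, and several sit on internal membranes such as those of the lysosome, the endoplasmic reticulum and mitochondria. In mice they are best known from lymphocytes, where they act in survival. Loss of Gimap5 in mice depletes lymphocytes and impairs blood stem cells, and loss of Gimap1 depletes mature T and B cells.

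The study followed mouse cells through the first days of reprogramming towards induced pluripotent stem (iPS) cells. All cells came from C57BL/6 mice grown entirely from iPS cells, whose genome holds doxycycline-inducible Oct4, Sox2, Klf4 and c-Myc, so every group carries these transgenes, controls included. LT-HSC and ST-HSC are the long-term and short-term stem cells of the blood system, MP are myeloid progenitors, and Fib are fibroblasts. Age and culture medium are not stated in the labels.

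D libraries, named 2D and 4D, came from cells cultured for 2 or 4 days with doxycycline. N libraries, named 2N and 4N, came from blood cells cultured for 2 or 4 days without it, according to the series design. The labels of the 6 N libraries nonetheless carry a yes for doxycycline, against that design, and the titles were followed. Libraries named 0 came from uncultured cells. Fibroblasts had no N libraries. Each condition was 1 library, so there were no replicates. A blood library held the RNA of 25 hand-picked cells, reverse transcribed from the poly(A) tail and amplified by PCR, whereas fibroblast RNA went through a standard Illumina preparation. Lineage and library method therefore cannot be told apart in any comparison of fibroblasts with blood cells.

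Values are FPKM, read fragments scaled to transcript length and to library size, and read depth is unknown. Between 10478 and 11365 genes reached FPKM 1 in a blood library, and between 11833 and 12425 in a fibroblast library. Sox2 checked the labels of induction, with 15.6 to 61.3 FPKM in the 6 D blood libraries and 0 to 1.5 FPKM in the 6 N libraries. An FPKM of 0 can be a failed estimate, since genes used by every cell, Gapdh, Rpl3 and Rps6, were also listed at 0 in 1 or 2 libraries each. These genes were low throughout, however, with at most 22.6, 5.82 and 17 FPKM in any library. Their zeros are thus not those of a gene at a high level in other libraries. Blood stem cell markers were present where the labels place them: the summed FPKM of 10 such genes was 125 in uncultured MP, against 1063 and 1229 in uncultured LT-HSC and ST-HSC. The uncultured LT-HSC library stood apart in also holding myeloid marker transcripts (8 genes), with a sum of 41464 FPKM, close to the 58352 FPKM of uncultured MP and far above the 1641 FPKM of uncultured ST-HSC. Calls of named genes whose fit uses this library are also given without it, without LT-HSC or without all uncultured libraries.

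Only 4 of the 8 Gimap genes were expressed at appreciable levels. Gimap6, Gimap1, Gimap5 and Gimap9 reached 617, 214, 109 and 37.2 FPKM in their highest library, whereas Gimap8 and Gimap4 reached 2.52 and 0.751 FPKM and Gimap3 and Gimap7 were listed at 0 in all 18 libraries. The promoters of the expressed genes are shown here because these genes lie within 1 run of Gimap genes on chromosome 6 and their levels were correlated across the libraries. Each is the RefSeq window of 300 bases on GRCm38.p6, from 250 bases before to 50 bases after the annotated start, read along the gene. Capitals mark the ETS core GGAAG and the RUNX core TGTGGT on either strand.
Gimap6, chr6:48708195-48708494, minus strand: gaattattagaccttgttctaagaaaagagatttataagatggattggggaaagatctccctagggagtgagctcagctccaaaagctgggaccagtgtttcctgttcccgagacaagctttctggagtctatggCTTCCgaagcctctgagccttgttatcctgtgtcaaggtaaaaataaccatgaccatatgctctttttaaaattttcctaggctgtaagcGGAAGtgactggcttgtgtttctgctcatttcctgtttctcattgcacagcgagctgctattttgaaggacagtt
Gimap1, chr6:48738797-48739096, plus strand: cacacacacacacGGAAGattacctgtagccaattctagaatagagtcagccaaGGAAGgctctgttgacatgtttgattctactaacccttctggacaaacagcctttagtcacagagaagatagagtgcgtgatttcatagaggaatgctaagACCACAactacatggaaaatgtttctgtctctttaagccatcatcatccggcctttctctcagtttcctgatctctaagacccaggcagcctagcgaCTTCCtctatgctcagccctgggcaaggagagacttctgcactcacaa
Gimap5, chr6:48745947-48746246, plus strand: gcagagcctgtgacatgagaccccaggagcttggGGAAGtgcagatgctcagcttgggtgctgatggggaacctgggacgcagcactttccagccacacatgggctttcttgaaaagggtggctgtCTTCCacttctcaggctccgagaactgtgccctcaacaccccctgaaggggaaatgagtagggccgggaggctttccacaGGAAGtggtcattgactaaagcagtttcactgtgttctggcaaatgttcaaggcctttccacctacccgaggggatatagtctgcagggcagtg
Gimap9, chr6:48675885-48676184, plus strand: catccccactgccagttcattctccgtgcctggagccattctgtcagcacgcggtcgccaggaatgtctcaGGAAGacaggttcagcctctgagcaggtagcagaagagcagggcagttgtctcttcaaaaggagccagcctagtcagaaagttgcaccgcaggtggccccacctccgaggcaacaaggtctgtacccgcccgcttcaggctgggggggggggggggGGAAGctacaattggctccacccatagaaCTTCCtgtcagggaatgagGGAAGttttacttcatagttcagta

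The ETS core, the centre of sites bound by ETS factors such as ERG, FLI1 and PU.1, was present in the promoter of all 8 members, and in 71.4% of the 32851 mouse promoters of this length. Counted from the annotated start, its matches in Gimap6 began at -25 and -115, and those in Gimap5 at -44, -124 and -216. Gimap9 had 4 matches and Gimap1 had 3. The RUNX core was present in 3 of 8 members (Gimap1, Gimap4 and Gimap7) and in 16.8% of all promoters, and in Gimap1 it began at -95. A STAT motif (TTCNNNGAA) was found in 4 of 8 members (Gimap3, Gimap6, Gimap7 and Gimap8) and in 8.3% of all promoters. The GATA motif AGATAA, the E-box CAGCTG and the IRF motif were in none of the 8, and in 11.2%, 16.3% and 3.44% of all promoters. Both strands were searched, and the 1 overlap between motifs was an ETS and a STAT match in the second of the 2 promoter windows of Gimap8. A match is a string of letters in these windows and says nothing of binding.

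In uncultured cells, Gimap6 (ENSMUSG00000047867), whose protein takes part in autophagy, was among the most abundant transcripts of the stem cells. It stood at 349 FPKM in LT-HSC, rank 257 among all genes, at 617 FPKM in ST-HSC, rank 116, and at 26.5 FPKM in MP, rank 4180. Gimap1 (ENSMUSG00000090019), needed by mature lymphocytes, had 120, 214 and 20.5 FPKM in LT-HSC, ST-HSC and MP. Gimap5 (ENSMUSG00000043505), a lysosomal membrane protein, had 109, 102 and 12 FPKM in the same order. These 3 genes were thus several times lower in MP than in both stem cell types. Gimap9 (ENSMUSG00000051124) did not share this, with 13.5 FPKM in LT-HSC, 12.7 in ST-HSC and 14.9 in MP.

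The remaining members stayed near or at 0. Gimap8 (ENSMUSG00000064262), a larger member with several GTPase domains, had 2.52 FPKM in ST-HSC 2D, 1.45 in LT-HSC 2N, 0.823 in ST-HSC 2N, 0.423 in LT-HSC 0 and 0.378 in MP 2D, and was listed at 0 elsewhere. Gimap4 (ENSMUSG00000054435), a regulator of T cell death, had 0.751 FPKM in ST-HSC 2D and was listed at 0 in the other 17 libraries. Gimap3 (ENSMUSG00000039264), the closest relative of Gimap5, and Gimap7 (ENSMUSG00000043931) were listed at 0 throughout. Reads may be shared between near-identical stretches: in the GENCODE M21 transcripts, 7.52% of the 50-base words of Gimap3 also occur in another member, Gimap5, and 4.53% of those of Gimap5 also occur in Gimap3. Of the words of Gimap1, 35.5% occur in another gene, mostly its antisense partner Gimap1os (listed as Gm3345). That partner had 17 FPKM in ST-HSC 2D, 6.12 in ST-HSC 4D and at most 3.82 elsewhere. In ST-HSC 2N and 4N it had 3.82 and 0.718 FPKM, so Gimap1os was higher in D than in N at both days there. In LT-HSC it had 3.58 and 0 FPKM in 2D and 4D against 0.915 and 3.37 in 2N and 4N. Whether counting used strand is not stated, so reads in the shared stretches cannot be assigned to Gimap1 or to Gimap1os.

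**Figure D1:**
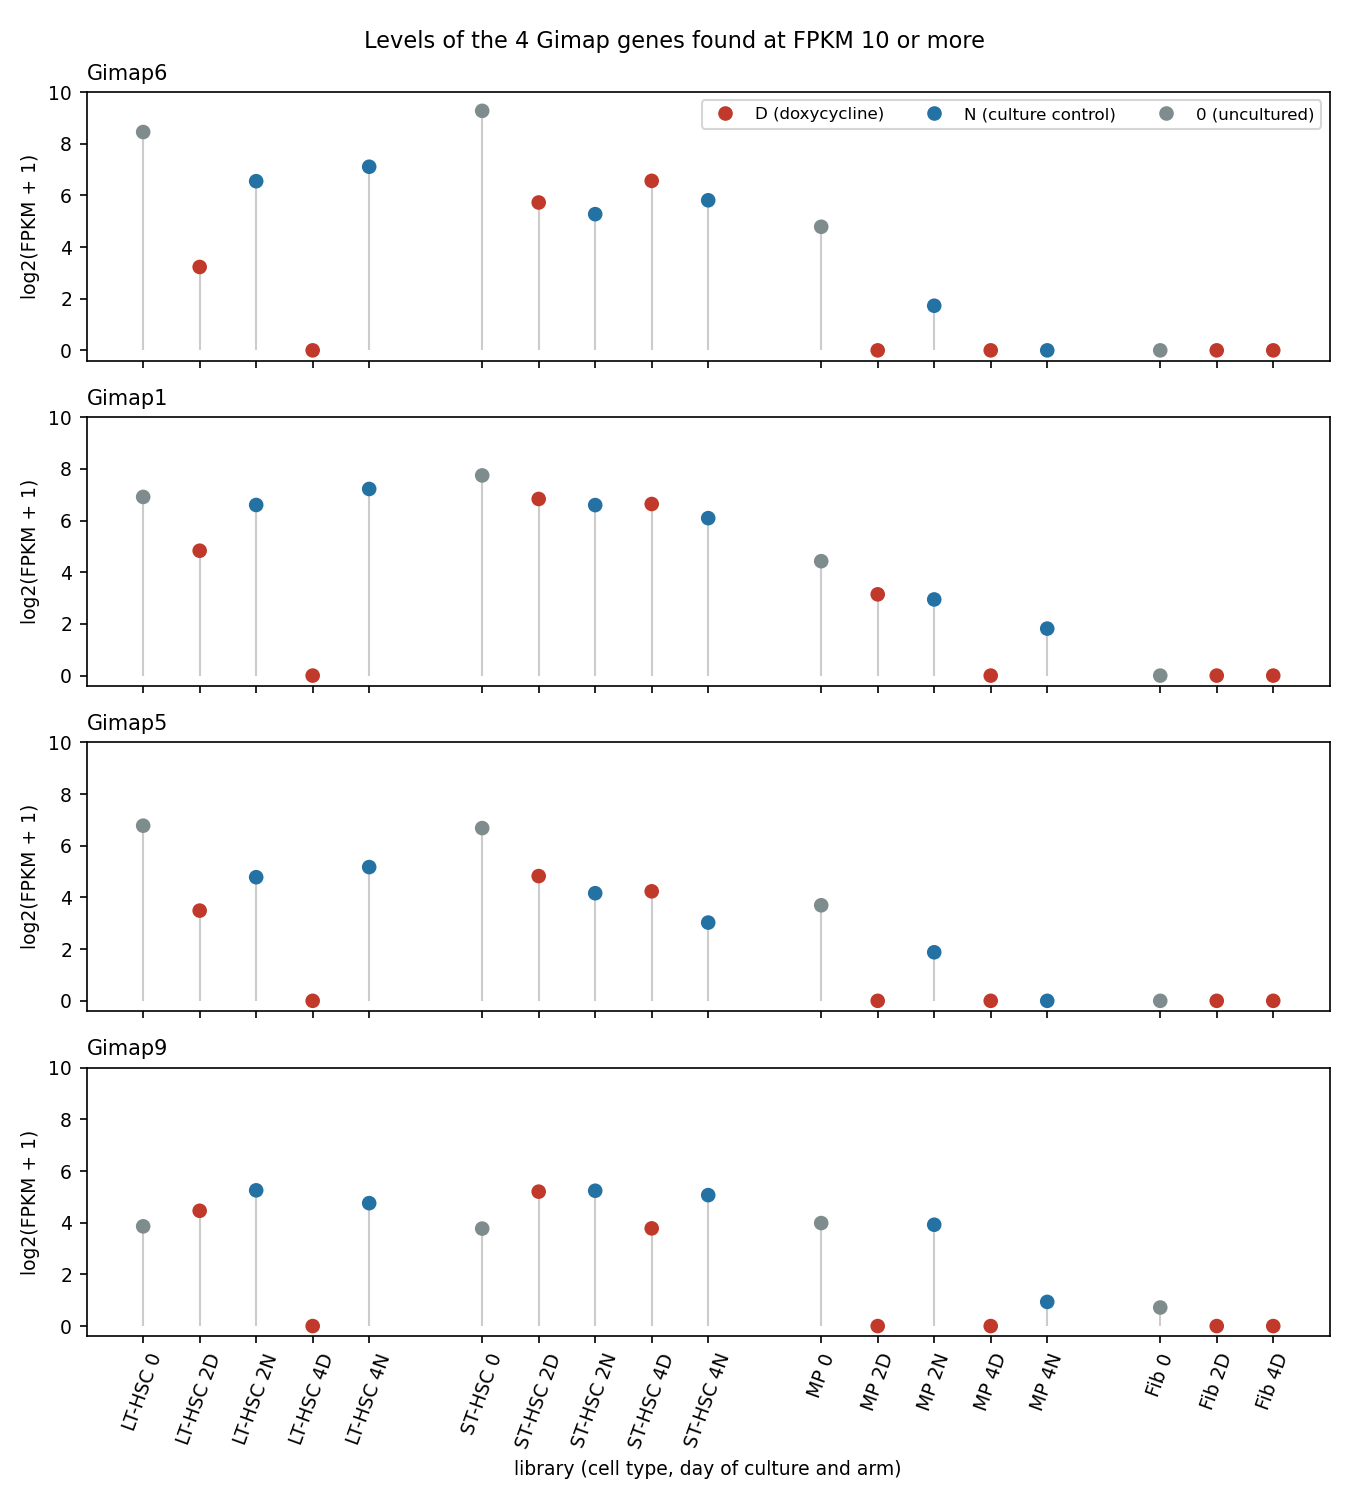
Level of Gimap6, Gimap1, Gimap5 and Gimap9 as log2(FPKM + 1) in each of the 18 libraries, by cell type, with D libraries in red, N libraries in blue and uncultured libraries in grey; each point is 1 library. All 4 genes are at 0 in LT-HSC 4D and MP 4D, while ST-HSC 4D holds 93.4, 98.8, 17.9 and 12.7 FPKM of Gimap6, Gimap1, Gimap5 and Gimap9.

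Across all 5 conditions, MP held less Gimap6 and Gimap5 than the stem cells. Gimap6 had 26.5, 0, 2.31, 0 and 0 FPKM in MP 0, 2D, 2N, 4D and 4N, and in the 10 LT-HSC and ST-HSC libraries it had a minimum of 0, a median of 73.8 and a maximum of 617 FPKM. Gimap5 had 12, 0, 2.68, 0 and 0 FPKM in the same MP libraries, against a minimum of 0, a median of 22.2 and a maximum of 109 FPKM in the stem cells. In both genes MP was below both stem cell types in conditions 0, 2D, 2N and 4N, and at 4D MP and LT-HSC were both at 0, so the groups overlapped.

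In limma, with condition as block, Gimap6 was lower in MP by a log2 difference of -4.50 ± 0.83 (SE; 95% interval -6.27 to -2.72; adjusted p = 0.0424). Gimap5 was lower by -3.20 ± 0.61 (interval -4.51 to -1.89; adjusted p = 0.0449). The test uses single libraries of different conditions, and LT-HSC and ST-HSC within a condition, as replicates of each other. Its p therefore measures the spread between conditions and between the stem cell types. These were 2 of the 4 members tested, against 0.297% of all 12453 genes called, 0.257% lower and 0.0402% higher in MP. The other members tested, Gimap1 and Gimap9, had -3.48 ± 0.78 (adjusted p = 0.0853) and -2.37 ± 0.67 (adjusted p = 0.155). Gimap3, Gimap4, Gimap7 and Gimap8 fell short of the mean of FPKM 1 needed for a test, here and in all comparisons that follow. With so few cells in a library, fewer cells that express a gene and less RNA of it per cell cannot be told apart.

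Both calls sat close to the threshold. They ended without the uncultured LT-HSC library that held myeloid transcripts (-4.58, adjusted p = 0.057 for Gimap6; -3.20, adjusted p = 0.0622 for Gimap5). They also ended without all 3 uncultured libraries (adjusted p = 0.131 for Gimap6 and 0.128 for Gimap5), and equally without condition 2N (0.187 and 0.196), 2D (0.141 and 0.177) or 4N (0.175 and 0.161). Without 4D they held, at -4.80 (adjusted p = 0.00696) and -3.47 (adjusted p = 0.0123), and Gimap1 also passed, at -3.52 (adjusted p = 0.00802). With the D libraries left out, Gimap6, Gimap5 and Gimap1 all passed, at -4.91, -3.24 and -3.80 (adjusted p = 0.0106, 0.0434 and 0.0106).

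No member passed the threshold between ST-HSC and LT-HSC. Limma with condition as block called 0 of 12419 genes (0.00%; 811 at an unadjusted p under 0.05, none of them a member). The ST-HSC minus LT-HSC difference was 1.46 for Gimap6 (interval -0.91 to 3.83; adjusted p = 0.841), 1.67 for Gimap1 (interval -0.52 to 3.86; adjusted p = 0.815), 0.54 for Gimap5 (interval -1.29 to 2.38; adjusted p = 0.925) and 0.95 for Gimap9 (interval -0.39 to 2.28; adjusted p = 0.82). These signs depended on the D libraries. Without them the difference was -0.58 for Gimap6, -0.10 for Gimap1 and -0.95 for Gimap5.

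Gimap6 and Gimap5 fell in culture without doxycycline, the control arm of the study. In LT-HSC, Gimap6 had 92.5 and 137 FPKM at 2N and 4N, against 349 uncultured. In ST-HSC it had 37.6 and 55.1 FPKM at 2N and 4N, against 617 uncultured. In MP it had 2.31 and 0 FPKM, against 26.5 uncultured. Each N library was thus below the uncultured library of its cell type, with no order between days that held in all types.

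Gimap6 fell by 3.09 ± 0.51 on the log2 scale in N against uncultured cells (SE; limma with cell type as block; 95% interval -4.21 to -1.97; adjusted p = 0.00918). Gimap5 had 26.6 and 35.2 FPKM in LT-HSC 2N and 4N against 109 uncultured, 16.9 and 7.16 FPKM in ST-HSC 2N and 4N against 102 uncultured, and 2.68 and 0 FPKM in MP 2N and 4N against 12 uncultured. It fell by 2.55 ± 0.51 (interval -3.68 to -1.42; adjusted p = 0.019). Together they were 2 of 4 members tested, against 8.89% of all 12060 genes called, 3.08% lower and 5.80% higher in N.

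Gimap1 and Gimap9 were not called. Gimap1 had 96.3 and 148 FPKM in LT-HSC 2N and 4N against 120 uncultured, so LT-HSC 4N exceeded the uncultured level, while in ST-HSC it had 96 and 67.3 FPKM against 214 uncultured. Its fitted difference was -1.15 ± 0.43 (adjusted p = 0.116). Gimap9 differed by cell type. It had 37.2 and 26 FPKM in LT-HSC 2N and 4N against 13.5 uncultured, 36.7 and 32.5 FPKM in ST-HSC 2N and 4N against 12.7 uncultured, but 14.2 and 0.912 FPKM in MP 2N and 4N against 14.9 uncultured. All 4 stem cell N libraries were above their uncultured level and both MP N libraries below it. Its pooled difference was 0.32 ± 0.70 (adjusted p = 0.797). A test of MP against stem cells in the N minus uncultured difference, added after the values were seen, gave -2.82 ± 1.27 for Gimap9 (interval -5.70 to 0.05; adjusted p = 0.468), and it called 0 of 12060 genes (0.00%; 1312 at an unadjusted p under 0.05, none of them a member). Without LT-HSC it was -2.94 ± 1.77 for Gimap9 (limma adjusted p = 0.44).

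The makeup of the family's transcripts also differed in culture. Gimap6 made up 36.4% and 39.5% of the summed FPKM of the 8 genes in LT-HSC 2N and 4N against 59% uncultured, and 20% and 34% in ST-HSC 2N and 4N against 65.3% uncultured. The sum itself was 254 and 346 FPKM in LT-HSC 2N and 4N against 591 uncultured, 188 and 162 FPKM in ST-HSC 2N and 4N against 945 uncultured, and 25.9 and 3.44 FPKM in MP 2N and 4N against 73.9 uncultured.

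The calls in N depended on which libraries entered. Without LT-HSC, the cell type whose uncultured library held myeloid transcripts, Gimap6 kept its call and Gimap5 lost it (-2.92; adjusted p = 0.0781). Without ST-HSC both calls ended (Gimap6 -2.77, adjusted p = 0.134; Gimap5 -2.28, adjusted p = 0.166), and with either day alone neither passed, with adjusted p of 0.0668 and 0.0718 for Gimap6 and of 0.128 and 0.0896 for Gimap5 at day 2 and day 4.

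Induction of the factors was compared with culture alone in 6 pairs of libraries of the same cell type and day. The sign of the difference was not the same in all cell types. In LT-HSC the family was lower in D at day 2 and listed at 0 at day 4: Gimap6 had 8.37 FPKM in 2D against 92.5 in 2N, and 0 in 4D against 137 in 4N. In ST-HSC Gimap6 was not lower, at 51.8 FPKM in 2D against 37.6 in 2N, and 93.4 in 4D against 55.1 in 4N. In MP, where N levels were already low, Gimap6 had 0 FPKM in 2D against 2.31 in 2N, and 0 in both 4D and 4N.

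Gimap1 followed the same division. In LT-HSC it had 27.5 FPKM in 2D against 96.3 in 2N and 0 in 4D against 148 in 4N, the widest log2 gap of any member in any pair. In ST-HSC it had 113 FPKM in 2D against 96 in 2N and 98.8 in 4D against 67.3 in 4N. In MP it had 7.85 FPKM in 2D against 6.71 in 2N and 0 in 4D against 2.53 in 4N. LT-HSC was thus the cell type in which both days lay below N.

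Gimap5 had 10.3 FPKM in LT-HSC 2D against 26.6 in 2N and 0 in 4D against 35.2 in 4N, and in ST-HSC it had 27.4 FPKM in 2D against 16.9 in 2N and 17.9 in 4D against 7.16 in 4N. It was 0 in MP 2D against 2.68 in 2N, and 0 in both MP libraries of day 4. ST-HSC was thus higher in D at both days for Gimap6, Gimap1 and Gimap5. Gimap9 was lower in D in all 6 pairs: 21 against 37.2 and 0 against 26 FPKM in LT-HSC at day 2 and day 4, 35.8 against 36.7 and 12.7 against 32.5 FPKM in ST-HSC, and 0 against 14.2 and 0 against 0.912 FPKM in MP.

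Over the 6 pairs no member passed the threshold. Limma called 0 of the 4 members tested, where 4.44% of all 12254 genes were called lower in D and 8.97% in either direction. An unadjusted p under 0.05 was found for 1 of the 4 (Gimap9), and for 2945 of all 12254 genes. The D minus N difference was -1.96 ± 0.63 for Gimap9 (SE; interval -3.35 to -0.56; adjusted p = 0.0862), -1.83 ± 0.93 for Gimap6 (interval -3.90 to 0.25; adjusted p = 0.271), -1.64 ± 0.91 for Gimap1 (interval -3.69 to 0.41; adjusted p = 0.317) and -1.08 ± 0.75 for Gimap5 (interval -2.75 to 0.59; adjusted p = 0.428). The median of the 4 was -1.73, against 0.02 for all genes tested. Flipping the signs of the 6 pair differences in all ways (an exact permutation test, two-sided) gave an unadjusted p = 0.0312 for Gimap9, the smallest such a test can reach, 0.25 for Gimap1 and for Gimap6, and 0.312 for Gimap5. Adjusted over the 6 members with a value, the sign-flip p was 0.188 for Gimap9 and 0.469 for Gimap1, Gimap5 and Gimap6, so none passed.

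All 4 differences were smaller in size without the LT-HSC pairs, where D minus N was -0.13 for Gimap6, -0.21 for Gimap1, -0.002 for Gimap5 and -1.55 for Gimap9. Without the LT-HSC day 4 pair alone it was -0.77 for Gimap6, -0.52 for Gimap1, -0.26 for Gimap5 and -1.39 for Gimap9. Without the ST-HSC pairs it was -3.04, -2.65, -2.09 and -2.60 for Gimap6, Gimap1, Gimap5 and Gimap9, and still none passed (adjusted p = 0.129, 0.183, 0.18 and 0.086).

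**Figure D2:**
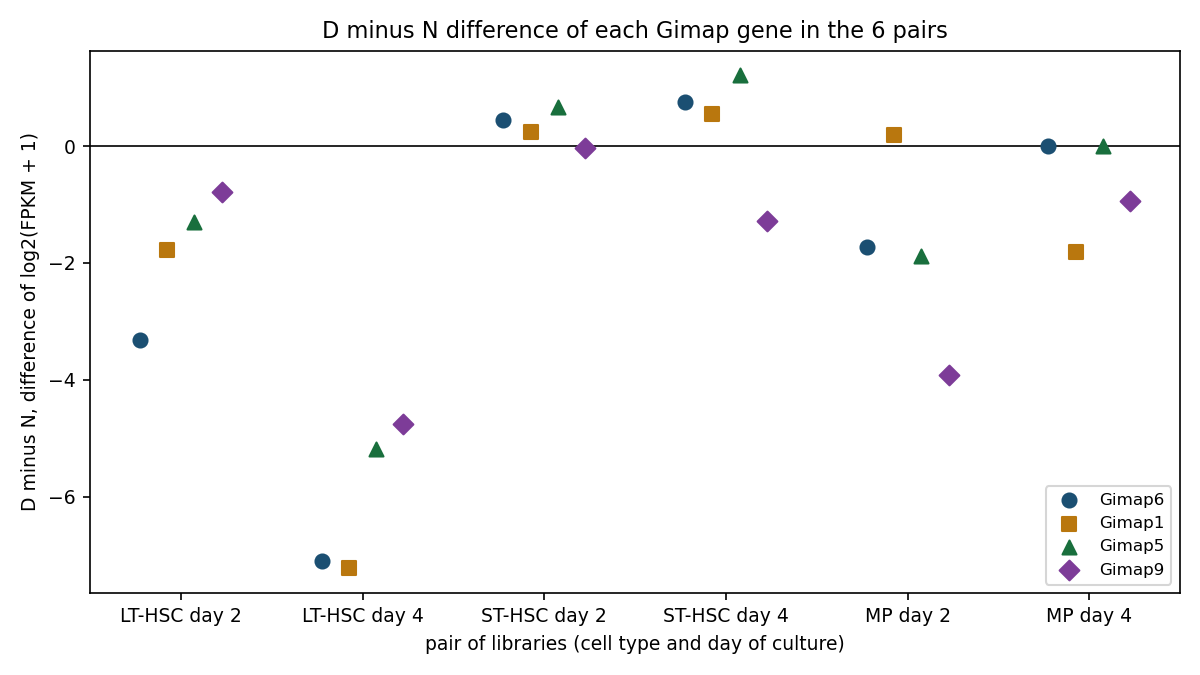
D minus N difference of log2(FPKM + 1) for Gimap6, Gimap1, Gimap5 and Gimap9 in the 6 pairs of libraries of the same cell type and day; each symbol is 1 gene in 1 pair, and the horizontal line marks no difference. LT-HSC day 4 holds the lowest values of all 4 genes, from -7.22 to -4.76, while Gimap6, Gimap1 and Gimap5 lie between 0.24 and 1.21 in both ST-HSC pairs.

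The split between the stem cell types was tested directly, after the values had been seen, over the 8 stem cell D and N libraries. The D minus N difference was larger in ST-HSC than in LT-HSC by 5.81 ± 1.17 for Gimap6 (SE; interval 3.01 to 8.62; adjusted p = 0.203), by 4.89 ± 1.57 for Gimap1 (interval 1.14 to 8.64; adjusted p = 0.36) and by 4.17 ± 1.29 for Gimap5 (interval 1.10 to 7.24; adjusted p = 0.344). For Gimap9 it was larger by 2.11 ± 1.30 (interval -1 to 5.23; adjusted p = 0.582). The fit leaves 2 residual degrees of freedom, and limma called 0 of 12211 genes in it (0.00%), with 1388 at an unadjusted p under 0.05, among them Gimap6, Gimap1 and Gimap5. The split is therefore a description of 4 pairs of libraries that did not pass the threshold over all genes.

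The other interactions gave no call either. The D minus N difference of MP minus that of the stem cells was 1.44 for Gimap6, 1.24 for Gimap1, 0.21 for Gimap5 and -0.71 for Gimap9 (limma adjusted p = 0.896 to 0.984), with 0 of 12254 genes called (0.00%; 1018 at an unadjusted p under 0.05, none of them a member). Day 4 minus day 2 was -0.59 for Gimap6, -2.39 for Gimap1, -0.49 for Gimap5 and -0.74 for Gimap9 (limma adjusted p = 0.989 to 0.993), again with 0 genes called (0.00%; 511 at an unadjusted p under 0.05, none of them a member).

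Markers of other cells were read in the same libraries. Ptprc, which encodes the leukocyte surface phosphatase CD45 and was chosen after its values were seen, had 2.47 and 0 FPKM in LT-HSC 2D and 4D, 55.9 and 22 FPKM in ST-HSC 2D and 4D, and 6.7 and 0 FPKM in MP 2D and 4D, against 20.3 to 30.9 FPKM in the 6 N libraries. It was thus at 0 in LT-HSC 4D and MP 4D, where every Gimap gene was listed at 0 too. The 10 blood stem cell markers summed to 452 and 192 FPKM in LT-HSC 2D and 4D against 795 and 790 in 2N and 4N, and to 1358 and 781 FPKM in ST-HSC 2D and 4D against 745 and 494 in 2N and 4N. Much of the sum in N was Cd34, a surface protein of progenitors, which had 9.19 and 0 FPKM in LT-HSC 2D and 4D against 487 and 575 in 2N and 4N. The other 9 markers summed to 443 and 192 FPKM in LT-HSC 2D and 4D against 308 and 216 in 2N and 4N, and to 1138 and 626 FPKM in ST-HSC 2D and 4D against 149 and 51.4 in 2N and 4N. Among them Ly6a, which encodes the stem cell antigen Sca-1, had 259 and 149 FPKM in LT-HSC 2D and 4D against 76.8 and 23.3 in 2N and 4N. Mecom, a stem cell transcription factor, had 94.2 and 24.9 FPKM in LT-HSC 2D and 4D against 28.8 and 14.7 in 2N and 4N, so neither of these 2 genes was lower in LT-HSC D than in N. Endothelial markers (10 genes) had sums of 254 and 44.3 FPKM in LT-HSC 2D and 4D against 528 and 441 in 2N and 4N, and of 590 and 789 FPKM in ST-HSC 2D and 4D against 342 and 209 in 2N and 4N. Egfl7 alone had 124 and 41.4 FPKM in LT-HSC 2D and 4D against 241 and 163 in 2N and 4N. In ST-HSC it had 394 and 705 FPKM in 2D and 4D against 283 and 195 in 2N and 4N. It thus made up most of the endothelial sum in each of these ST-HSC libraries. Of the endothelial list Cldn5 was listed at 0 in all blood libraries, and Cdh5 in all N and uncultured ones.

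LT-HSC 4D and MP 4D had the fewest genes at FPKM 1 or more of the 6 D libraries, 10758 and 10759, where the other 4 had 11167 to 11365, and the 6 N libraries had 10702 to 11118. Several markers of lymphocytes, the best known site of Gimap expression, were not found. The T cell genes Cd3e, Cd3d, Cd3g, Cd2 and Cd5 and the B cell genes Pax5 and Ms4a1 were listed at 0 in all 15 blood libraries. The 10 T and NK markers summed to 0 to 170 FPKM in D libraries, 10.2 to 376 in N libraries and 247 to 868 in uncultured libraries, and 5 of the 10 were above 0 in any blood library. Nkg7 made up most of this sum in LT-HSC 0 and MP 0 (624 of 647 and 865 of 868 FPKM). Lck made up most of it in ST-HSC 4D (166 of 170 FPKM). Myeloid markers (8 genes) summed to 1.83 to 138 FPKM in D, 140 to 33401 in N and 1641 to 58352 in uncultured libraries. The 8 B cell markers summed to 0 to 5.39 FPKM in D, 9.79 to 54.8 in N and 1.45 to 82.2 in uncultured libraries. Lymphoid priming markers (Il7r, Flt3, Rag1, Rag2 and Dntt) summed to 3.23, 242 and 24.7 FPKM in LT-HSC 0, ST-HSC 0 and MP 0. In ST-HSC 0, Flt3 had 106 FPKM and Dntt had 135 FPKM. The lymphoid priming sums were 0 to 28.2 FPKM in N and 0 to 34.2 FPKM in D libraries. What part these other transcripts have in the Gimap levels was not tested.

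D cultures were also set against uncultured cells. This comparison, added after the values were seen, shares its uncultured libraries with that of N. Gimap6 fell by 4.92 ± 0.78 in D against uncultured cells (SE; limma with cell type as block; interval -6.64 to -3.19; adjusted p = 0.00414) and Gimap5 fell by 3.63 ± 0.78 (interval -5.35 to -1.91; adjusted p = 0.0137). These were 2 of 4 members tested, against 15.3% of all 12539 genes called, 6.17% lower and 9.16% higher in D. Gimap1 had -2.79 ± 1.07 (adjusted p = 0.102) and Gimap9 -1.63 ± 1.03 (adjusted p = 0.296). Without LT-HSC Gimap6 kept its call, at -3.96 (adjusted p = 0.0149). The call of Gimap5 ended without LT-HSC (-2.93; adjusted p = 0.0514) or without MP (-3.59; adjusted p = 0.0716).

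Fibroblasts showed next to none of the family at any time. Gimap9 had 0.645 FPKM in uncultured fibroblasts, and all other values of the 8 genes in Fib 0, Fib 2D and Fib 4D were listed at 0, while Sox2 reached 124 FPKM there.

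Ranked by level, the blood libraries ran for Gimap6 from ST-HSC 0 and LT-HSC 0 down through LT-HSC 4N, ST-HSC 4D, LT-HSC 2N, ST-HSC 4N, ST-HSC 2D and ST-HSC 2N to MP 0, LT-HSC 2D and MP 2N, with LT-HSC 4D, MP 2D, MP 4D and MP 4N at 0. With 1 library for each, neighbours in this order have no spread of their own and are not separated. Across the 15 blood libraries the log2 levels of Gimap5 and Gimap6 were most alike of the 6 pairs of expressed members, with a Pearson correlation of 0.973. Gimap1 correlated at 0.932 with Gimap6 and at 0.919 with Gimap5. Gimap9 was the least alike, at 0.847 with Gimap1, 0.798 with Gimap5 and 0.779 with Gimap6. Without the uncultured LT-HSC library the 6 correlations ran from 0.808 to 0.971. These values describe 15 libraries that share cell types and culture days.

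The 8 members form an unbroken run in the reference annotation of chromosome 6 (GRCm38.p6), in the order Gimap8, Gimap9, Gimap4, Gimap6, Gimap7, Gimap1, Gimap5, Gimap3, with no other protein-coding gene between the first and the last. Expressed members and members near 0 are interspersed along it: Gimap9 lies between Gimap8 and Gimap4, and Gimap7, at 0 throughout, lies between Gimap6 and Gimap1. On one side of the run lie Tmem176b and Tmem176a, which encode related membrane proteins. Tmem176b had 158, 51, 105, 25.5 and 134 FPKM in MP 0, 2D, 2N, 4D and 4N, 746, 373, 385, 40.2 and 624 FPKM in the same conditions of LT-HSC, and 831, 563, 454, 331 and 300 FPKM in those of ST-HSC. Its low point among LT-HSC was 4D, as for the Gimap genes, but it was not at 0 there.

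In the test of MP against stem cells, Tmem176b was lower by -2.25 ± 0.38 (SE; limma adjusted p = 0.028) and Tmem176a by -2.21 ± 0.35 (adjusted p = 0.027), the only calls among the flanking genes tested. Of all genes, 0.257% were called lower in MP in this test. Both flanking calls ended without the 3 uncultured libraries (adjusted p = 0.102 for Tmem176b and 0.0831 for Tmem176a) and held without the uncultured LT-HSC library alone (0.0444 and 0.0435). On the other side, Gm5111 had -2.01 ± 0.75 (adjusted p = 0.266), Repin1, a zinc finger gene, -0.77 (adjusted p = 0.248), Lrrc61 0.50 (adjusted p = 0.641) and Zfp775 0.49 (adjusted p = 0.751). Gm5111 was listed at 0 in all 5 MP libraries and all 6 D libraries, and it had 4.58 and 9.98 FPKM in LT-HSC 2N and 4N against 13.6 uncultured, and 24.7 and 0 FPKM in ST-HSC 2N and 4N against 47 uncultured. It was the flanking gene with the lowest fitted D minus N difference, -1.77 ± 0.72 (limma adjusted p = 0.163). Zfp775 had -1.23 (adjusted p = 0.159), Tmem176a and Tmem176b -1.25 and -1.15 (adjusted p = 0.173 and 0.213), Lrrc61 -0.53 (adjusted p = 0.52) and Repin1 -0.22 (adjusted p = 0.74), so none was called. In D against uncultured cells Gm5111 fell by 3.15 (limma adjusted p = 0.0383), a call that ended without LT-HSC (-2.79; adjusted p = 0.238). Rarres2, the remaining gene on that side, had at most 0.263 FPKM in a blood library and 1.25 FPKM in uncultured fibroblasts. Tmem176b and Tmem176a were also found in fibroblasts, at up to 59.4 and 39.5 FPKM, where the Gimap genes were not. A wider list of 10 genes of the region, 6 of them tested in each comparison, had 0 calls in D against N and in N against uncultured cells (2 and 4 at an unadjusted p under 0.05 in limma). Of all genes, 8.97% and 8.89% were called in these comparisons, and 2945 of 12254 and 3254 of 12060 had an unadjusted p under 0.05. Gm7932, Aoc1 and Doxl1, farther out on the side of Tmem176b and Tmem176a, were listed at 0 in all libraries.

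**Figure D3:**
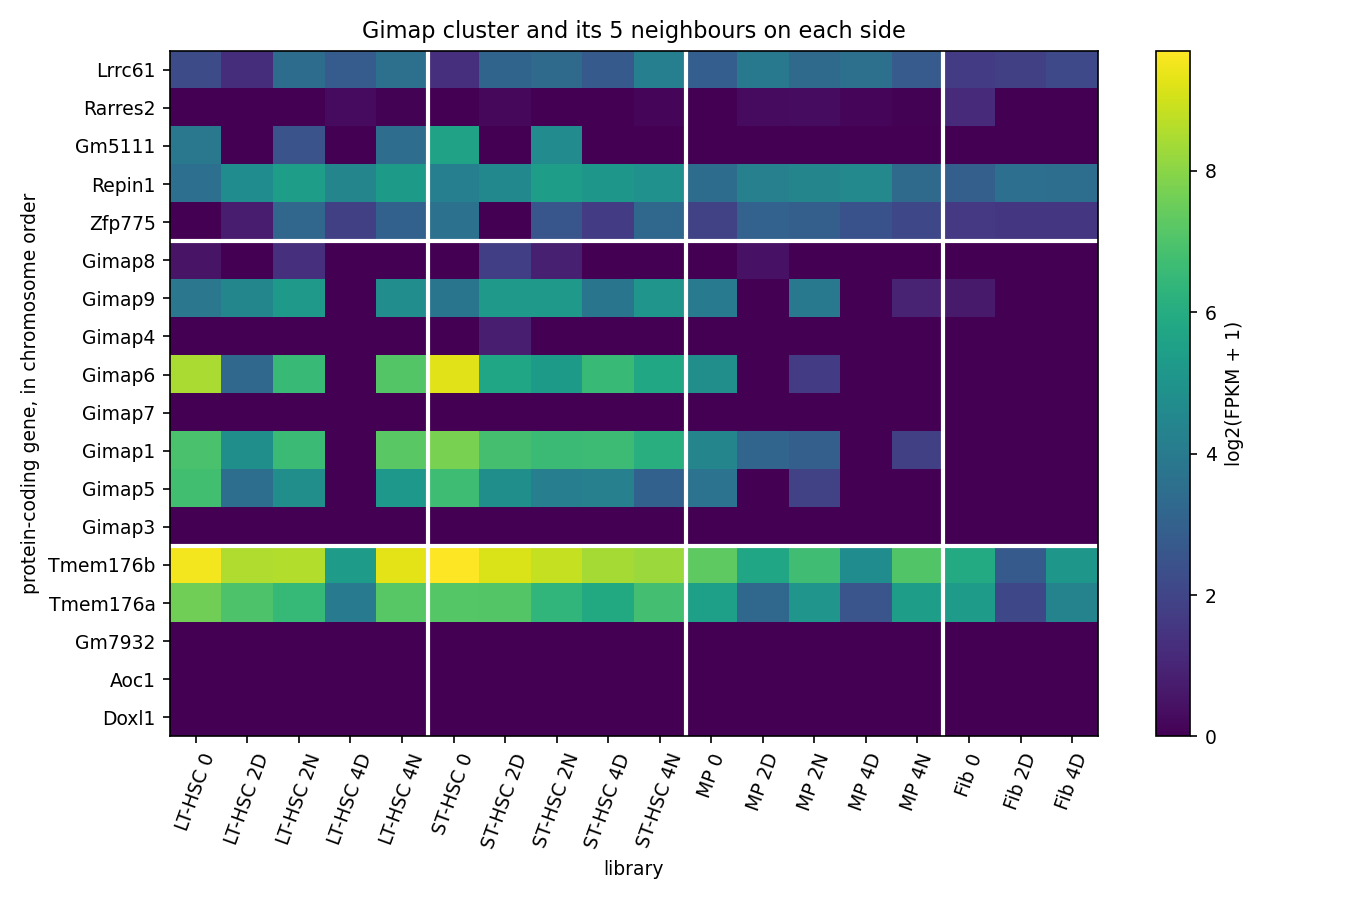
Heat map of log2(FPKM + 1) for the 8 Gimap genes and 5 protein-coding genes on each side, in chromosome order from top to bottom, in the 18 libraries from left to right; white lines separate the members from their neighbours and the cell types from each other. Gimap6, Gimap1 and Gimap5 and the neighbours Tmem176b and Tmem176a are brighter in LT-HSC and in ST-HSC than in MP within conditions 0, 2D, 2N and 4N, and the Gimap rows are dark in LT-HSC 4D, MP 4D and fibroblasts.

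Among 10691 genes that reached FPKM 10 in a blood library, the one most like the mean log2 profile of Gimap1, Gimap5, Gimap6 and Gimap9 over the 15 blood libraries was Erg, an ETS transcription factor of blood stem cells and endothelium, with a Pearson correlation of 0.969. Next came Tmem176b at 0.949, Myct1 at 0.947, Trp53i11 at 0.946 and 2010002N04Rik at 0.946. Without the uncultured LT-HSC library the correlations of these 5 genes were 0.966, 0.944, 0.947, 0.952 and 0.943. Erg had 9.92 and 0 FPKM in LT-HSC 2D and 4D against 22.6 and 23.3 in 2N and 4N, 24.4 and 6.7 FPKM in ST-HSC 2D and 4D against 16 and 18.7 in 2N and 4N, and 0.329 and 0 FPKM in MP 2D and 4D against 5.4 and 1.28 in 2N and 4N. It too was at 0 in LT-HSC 4D and MP 4D, but in ST-HSC it was lower in 4D than in 4N, unlike Gimap6, Gimap1 and Gimap5.

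Singly, Gimap5 and Gimap6 were both most like Myct1 (0.979 and 0.945). Gimap1 was most like Tmem176b (0.944), which flanks the run with Gimap5 and Gimap3 between them. Gimap9 was most like Igtp (0.955), a GTPase of the interferon-induced IRG family. After these, Gimap5 was most like Pear1, Erg, H2-K1 and Tmem176b (0.936 to 0.926), and Gimap6 like Ctla2a, Neurl3, 2010002N04Rik and H2-K1 (0.936 to 0.921). Gimap1 was next most like Spns2, Trp53i11, Erg and Lgals3bp (0.943 to 0.912), and Gimap9 like Erg, F2rl3, Serpina3g and Hdac7 (0.931 to 0.889). Myct1 was picked for its likeness over these same libraries, so its fitted values are a description and no separate support. It was lower in MP than in stem cells by -4.55 ± 0.79 (limma adjusted p = 0.0313) and in N than in uncultured cells by -3.32 ± 0.54 (adjusted p = 0.00913), with -0.66 ± 0.93 in D against N (adjusted p = 0.729). Without the 3 uncultured libraries its difference in MP had an adjusted p of 0.128, and without LT-HSC its difference in N was -3.86 (limma adjusted p = 0.0412). Igtp had 0 FPKM in LT-HSC 4D, MP 2D and MP 4D, the same libraries in which Gimap9 was listed at 0. The correlations are over libraries that share their cell types, and no p is attached to them.

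**Figure D4:**
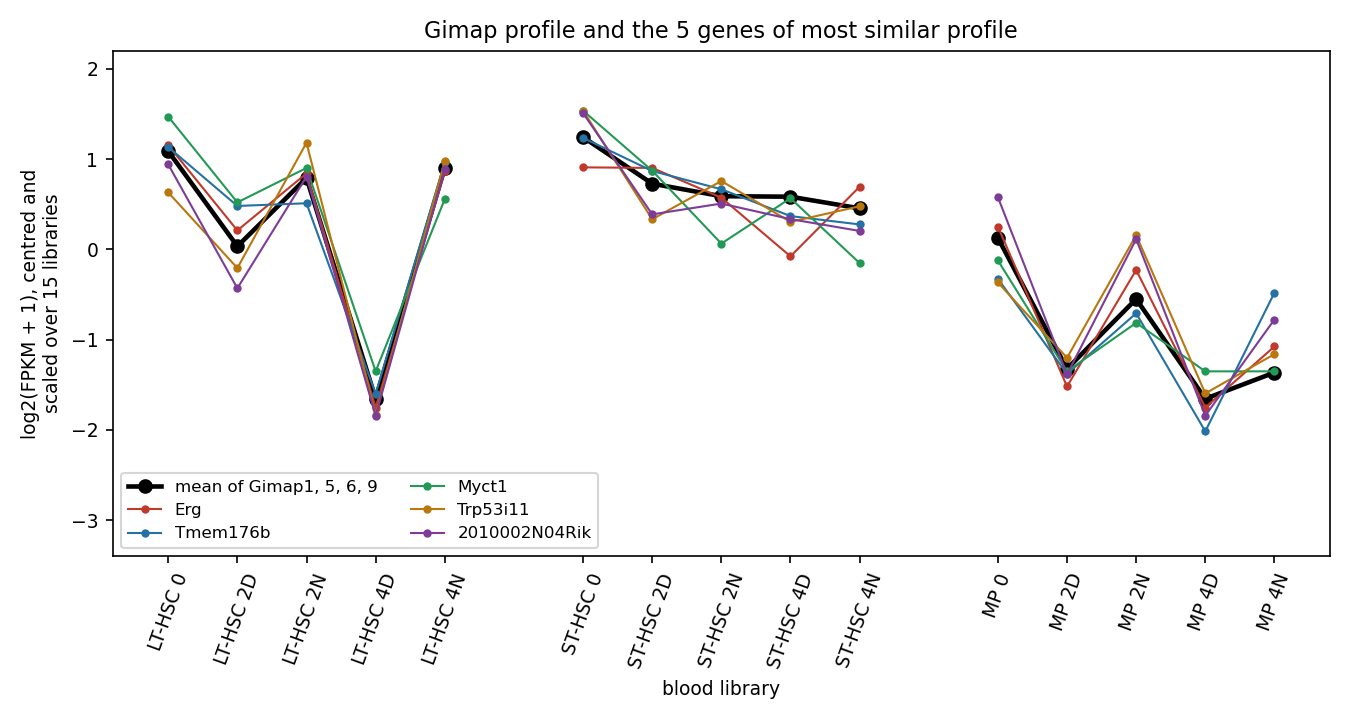
Profiles over the 15 blood libraries of the mean of Gimap1, Gimap5, Gimap6 and Gimap9 (black) and of Erg, Tmem176b, Myct1, Trp53i11 and 2010002N04Rik, each as log2(FPKM + 1) centred and scaled to unit spread; each point is 1 library. All 6 lines drop at LT-HSC 4D and lie low in MP 2D and MP 4D, while at ST-HSC 4D none is as low as at LT-HSC 4D. Erg was still at its lowest ST-HSC value there, with 6.7 FPKM against 18.7 in 4N, whereas Myct1 had 55.8 FPKM against 11.5 in 4N.

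Genes whose products act beside GIMAP proteins in lymphocytes were read as lists. Of 11 BCL2 family genes, which control cell death and are reported partners of GIMAP proteins, 1 was higher and 2 were lower in D than in N, beside 4.53% of all genes called higher and 4.44% called lower. Bcl2l11, which encodes the death promoter BIM, rose by 1.16 (limma adjusted p = 0.0401). Bcl2l1, which encodes the survival protein BCL-XL, and Bid, a death promoter, fell by 1.63 and 1.62 (limma adjusted p = 0.00956 and 0.0145). In N against uncultured cells Bcl2l1 and Bid rose by 2.67 and 1.92 (limma adjusted p = 0.0288 and 0.0357) and the survival gene Mcl1 fell by 2.02 (adjusted p = 0.0217), where 5.80% of all genes were called higher and 3.08% lower. All 3 calls ended without LT-HSC, with 2.93 for Bcl2l1, 1.62 for Bid and -1.61 for Mcl1 (limma adjusted p = 0.109, 0.112 and 0.133).

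Of 8 tested FOXO and quiescence genes, 2 were higher and 0 lower in D than in N, beside 4.53% of all genes called higher and 4.44% called lower. Foxo1, a factor of lymphocyte rest and homing, had 38.6, 86.4 and 33 FPKM in LT-HSC, ST-HSC and MP at 2D, against 4.78, 2.51 and 1.37 FPKM at 2N, and rose by 3.14 (limma adjusted p = 0.00412). S1pr1, a receptor for exit into the blood, rose by 3.89 (adjusted p = 0.00278). In N against uncultured cells S1pr1 and Klf2, a factor of cell quiescence, fell, at -3.36 and -4.51 (limma adjusted p = 0.0357 and 0.00291), 2 of 8 tested with 0 higher, beside 3.08% of all genes called lower. Without LT-HSC, Klf2 kept its call (-4.78; limma adjusted p = 0.0221) and S1pr1 lost it (-2.14; adjusted p = 0.22). Of 5 GSK3 and beta-catenin genes, Ctnnb1, beta-catenin itself, rose by 0.89 in D against N (limma adjusted p = 0.0165) and no other passed. Of all genes, 4.53% were called higher in that comparison.

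Transcription factors of lymphoid and stem cell genes moved both ways in D, with 2 of 16 higher and 5 lower, beside 4.53% and 4.44% of all genes, and a list median of -1.35, against 0.02 for all genes. Satb1 and Lef1, both factors of T cell development, rose by 3.08 and 2.84 (limma adjusted p = 0.00176 and 0.0107), and Lef1 was listed at 0 in every N library. Myb fell by 3.31, and Lyl1, Runx3, Runx1 and Spi1 (listed as Sfpi1), which encodes the ETS factor PU.1, fell too, at -3.23, -2.88, -1.65 and -4.54 (limma adjusted p = 4.22e-04, 0.0209, 0.023, 0.033 and 0.0395). Erg had -1.66 ± 0.59 and did not pass (adjusted p = 0.114). In limma, 0 of 14 of these factors tested passed in N against uncultured cells and 0 of 16 in MP against stem cells (5 and 4 at an unadjusted p under 0.05). Of all genes, 8.89% and 0.297% were called in these comparisons, and 3254 of 12060 and 1688 of 12453 had an unadjusted p under 0.05. The BCL2, FOXO and GSK3 lists had 0 calls in MP against stem cells as well (3, 2 and 1 at an unadjusted p under 0.05).

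GTPases of other immune families were read in the same fits. Of 15 IRG, GBP and Mx genes, 7 were tested in D against N and 0 passed in limma, beside 8.97% of all genes called. Their median there was -1.42, beside -1.73 for the Gimap members and 0.02 for all genes. The lowest were Ifi47 at -2.10 (adjusted p = 0.0705), Gbp7 at -1.55 (0.0982), Igtp at -1.88 (0.111) and Gbp3 at -1.42 (0.131). An unadjusted p under 0.05 was found for 5 of the 7, and for 2945 of all 12254 genes. In N against uncultured cells 0 of 9 tested passed (2 at an unadjusted p under 0.05), with Gbp3 nearest at -1.93 (limma adjusted p = 0.051), and in MP against stem cells 0 of 8 tested passed (2 at an unadjusted p under 0.05), with Igtp nearest at -1.94 (adjusted p = 0.18). Of all genes, 8.89% and 0.297% were called in these comparisons, and 3254 of 12060 and 1688 of 12453 had an unadjusted p under 0.05. In D against uncultured cells 1 of 7 tested was called lower, beside 6.17% of all genes. The median of these GTPases in N against uncultured cells was -0.05, beside -1.85 for the Gimap members and 0.17 for all genes.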

How the data were processed

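RNA was measured in 18 mouse libraries, each a single sample of its condition. The values are the authors' deposited FPKM, 1 per gene and library, made with TopHat and Cufflinks on mm9 per the submitters' processing notes; of the annotation and tool versions, nothing is given in the sources used here. FPKM as the unit was inferred from the values. Low values did not share a common step between libraries, so counts and depth could not be recovered and no detection limit is given. Symbols on several entries were summed.

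Values were used as log2(FPKM + 1), so differences of genes near 0 depend on the added 1. Genes whose mean reached FPKM 1 in a fit were tested over all genes with limma 3.58.1 (R 4.3.3, with trend and robust options, two-sided); p-values were adjusted by Benjamini-Hochberg, with a threshold of 0.05. D against N had a term for each of the 6 pairs, comparisons with uncultured cells had cell type as block, and comparisons of cell types had condition as block. P-values therefore measure how single libraries of different cell types and days spread. The fits were tested on simulated data with normal noise and no floor at 0, unlike the Gimap values. A planted log2 shift of 4 was found for 88% to 100% of the genes given it in the comparisons of groups. In the interactions it was found for 38% to 60%, so a member not called there can still differ.

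All 8 members are named. Also named are the 5 genes most correlated with their mean profile and with single members, the 5 flanking genes on each side, and up to 4 genes of a list by smallest p in D against N, with any others that passed. The members and lists were chosen with earlier results of these data known. The fits of D against uncultured cells, of ST-HSC minus LT-HSC in D minus N and of MP minus stem cells in N minus uncultured, and the choice of Ptprc came after the values were seen, as did the fits without ST-HSC or LT-HSC pairs or without the uncultured LT-HSC library, the correlations without it, and the marker sum without Cd34. Alternatives changed the added value, filter, normalization, limma options, blocks and libraries. Promoters came from RefSeq (GRCm38.p6) and shared 50-base words from GENCODE M21 transcripts. No position on mm9 was used. Protein sequences were not used here. Python 3.11.15 with pandas 2.3.3, numpy 2.4.6, scipy 1.17.1 and matplotlib 3.10.9 made the tables and figures.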

Additional observations from a re-analysis of the deposited data

Results flagged for a closer look

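Gimap6, Gimap1 and Gimap5 went opposite ways in the stem cell types under doxycycline. Both ST-HSC pairs were higher in D and both LT-HSC pairs lower in D for Gimap6 (a mean D minus N log2 difference of 0.60 in ST-HSC and -5.21 in LT-HSC, a difference of 5.81), for Gimap1 (0.39 and -4.50, a difference of 4.89) and for Gimap5 (0.94 and -3.23, a difference of 4.17). The tests of these differences in limma, added after the values were seen, did not pass over all genes (adjusted p = 0.203, 0.36 and 0.344). In N against uncultured cells, Gimap9 was higher in all 4 stem cell libraries and lower in both MP libraries, with mean log2 differences of -1.56 in MP and 1.26 in stem cells, a difference of -2.82 (limma adjusted p = 0.468).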

How the results depend on the processing

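In D against N, limma called 0 members under all 19 alternatives, with all 76 member differences keeping their sign; the adjusted p of Gimap9 ranged from 0.0522 to 0.311. The 2 members called in N against uncultured cells became 0 with 0.1 added before the log, with 2N alone and with 4N alone, and 0 to 2 with each cell type left out. The 2 called in MP against stem cells became 0 with 0.1 added, with 5 added, without a filter and without limma's trend and robust options, and 0 to 3 with each condition left out. The 2 called in D against uncultured cells became 1 to 2 with each cell type left out. The causes of these changes were not tested.

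Signs that turned belonged to differences that were not called. In N against uncultured cells Gimap9 had -0.29 with 4N alone, and -0.21 to 1.26 with each cell type left out (-0.09 without LT-HSC). In ST-HSC against LT-HSC, Gimap5 had -0.38 to 1.22 with each condition left out (-0.38 without 4D) and -0.95 without the D libraries, where Gimap1 and Gimap6 had -0.10 and -0.58. In MP minus stem cells of D minus N, Gimap5 had -0.44 with 0.1 added and Gimap9 0.021 with 5 added, and in MP minus stem cells of N minus uncultured, Gimap5 and Gimap6 had 0.74 and 0.22 with 5 added.

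The labels give no replicate numbers that groups share, so no fit by replicate number was made, and the fit of D against N pairs libraries by cell type and day. Unknown depth limits every value near 0. No self-standing error of a condition can be given, and a library listed at 0 cannot be told from a failed estimate.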
